A study of Mus musculus with 19 samples.

Results

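The genes described here encode the 4 pore subunits of the AMPA receptor (Gria1, Gria2, Gria3 and Gria4) and 6 of its transmembrane auxiliary subunits, the TARPs (Cacng2, Cacng3, Cacng4, Cacng5, Cacng7 and Cacng8). Every probe that carried one of these gene names on the arrays was taken, which gave 21 of 41174 probes, 12 for the receptor subunits and 9 for the TARPs. The arrays were hybridised with RNA of dissociated mouse hippocampal neurons on day 21 in vitro, after 6 h in one of 4 treatments. The 19 arrays comprised 5 with vehicle, 5 with AP5 at 100 µM, 4 with NVP-AAM077 (NVP in the titles) at 100 nM and 5 with 1 µM of a compound titled Ro25. AP5 blocks NMDA receptors by competing with glutamate, and NVP does the same with a bias towards GluN2A-containing receptors. The longer name that the labels give Ro25 is not that of the well-known GluN2B antagonist with the same prefix, so its identity is not settled here. The doses differ, and values of the 3 compounds are given side by side without a dose match. Each array set neuron RNA in the red dye (Cy5) against a commercial universal mouse reference RNA in the green dye (Cy3), the same on every array. A value below is the log2 ratio of red over green unless another quantity is named. Whether arrays of a group stem from separate cultures is not stated, and p-values here reflect only the spread between arrays, which may be technical.

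AMPA receptors are tetramers that open on binding glutamate and carry most of the fast excitatory current in hippocampal neurons, while NMDA receptors at the same synapses let in calcium and take part in setting how many AMPA receptors the synapse holds. GluA2, the product of Gria2, makes the receptor nearly impermeable to calcium when its transcript has been edited by the adenosine deaminase ADAR2. TARPs bind the receptor in the membrane, help it to the surface and to postsynaptic scaffolds, and slow its closing.

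The files place the Gria1 probes on chromosome 11, the Gria2 probes on chromosome 3, the Gria3 probes on chromosome X and the Gria4 probes on chromosome 9 of the mm8 assembly. Which exon or untranslated region each probe lies in was not looked up. The Cacng2 probes lie on chromosome 15, that of Cacng3 on chromosome 7, those of Cacng4 and Cacng5 on chromosome 11, and those of Cacng7 and Cacng8 on unplaced sequence of chromosome 7. The brightest Gria1 probe, A_52_P39575, is at chr11:57146150-57146209 on the plus strand. The brightest Gria2 probe, A_52_P575176, is at chr3:80774457-80774516 on the minus strand.

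The files hold no probe sequences, so promoter windows are shown for 2 receptor genes described below. Windows of 300 bases, 250 before the annotated start and 50 after it, were matched for 7 of the 10 genes (8 windows) in RefSeq's mouse annotation of the GRCm38.p6 assembly. The Gria2 window is at chr3:80802786-80803085 and the Gria4 window at chr9:4796185-4796484, both on the minus strand and written 5′ to 3′. Capitals in the Gria2 window mark a minus-strand match to the core of RE1, the element bound by the neuronal gene repressor REST.
Gria2: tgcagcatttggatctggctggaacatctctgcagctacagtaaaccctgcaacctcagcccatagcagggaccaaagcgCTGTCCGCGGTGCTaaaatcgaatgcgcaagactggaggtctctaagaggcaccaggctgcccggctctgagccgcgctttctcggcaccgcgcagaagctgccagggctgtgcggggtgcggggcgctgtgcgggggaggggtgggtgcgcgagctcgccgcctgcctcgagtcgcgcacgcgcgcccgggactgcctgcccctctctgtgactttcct
Gria4: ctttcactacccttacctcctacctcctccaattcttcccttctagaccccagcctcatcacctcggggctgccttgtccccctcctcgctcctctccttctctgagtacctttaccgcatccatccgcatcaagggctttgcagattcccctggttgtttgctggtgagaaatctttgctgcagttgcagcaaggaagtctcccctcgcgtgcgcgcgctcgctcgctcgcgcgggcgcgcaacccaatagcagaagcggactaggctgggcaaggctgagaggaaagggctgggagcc
The RE1 core, like the motifs below, was searched on both strands, after the Gria2 sequence had been read. It was found in 1 of the 8 windows and in 17 of 32851 promoter windows of all genes (0.0517%), and its first base in the Gria2 window stood at -170 from the start. The cAMP response element TGACGTCA, its shorter form TGACG (which the full element contains), the MEF2 site and the TATA box TATAAA were in 0 of the 8 windows, against 1.79%, 20.8%, 3.19% and 13.6% of all windows. The E-box CANNTG was in 7 of the 8, against 72.3%. A match describes the letters of the window and no more.

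Red was well above background on all 19 arrays for 18 of the 21 probes, so transcripts of all 10 genes were measured in these cultures. Gria2 probe A_52_P360995 was above background on 7 arrays. Gria4 probe A_52_P153588 and Cacng2 probe A_52_P539692 were above it on 0 arrays and were not tested, which left 19 probes. They were tested among 28663 probes in all, those with red well above background on at least 4 arrays. No probe of these genes was saturated. The green reference signal was never well above background for Gria2 probes A_52_P891243 and A_52_P360995 and Gria4 probe A_52_P349182, so their ratios divide by a signal close to background.

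The cultures carried markers of neurons and of glia. All 8 excitatory, 6 pan-neuronal and 8 GABAergic markers gave red signal above background on at least 4 arrays, as did all 10 astrocyte and 9 oligodendrocyte lineage markers. Among 8 microglia markers, Itgam and P2ry12 were above background on 0 arrays. Averaged over the astrocyte markers, the log2 ratio was 2.92 on Ro25 array 3, 3.06 on vehicle array 3, 3.12 on NVP array 4 and 3.15 on AP5 array 5, and at least 3.89 on the others, so 1 array in each group stood apart. Arrays lay on 5 slides that were tied to treatment. AP5 arrays 1 to 4 filled slide 1, vehicle arrays 1, 3, 4 and 5 filled slide 5, and no slide held both AP5 and vehicle arrays, so slide and AP5 cannot be told apart in most of that comparison.

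With AP5, log2 ratios of the receptor subunits were higher than with vehicle, for at least 1 probe of each of Gria1, Gria2, Gria3 and Gria4, and the same held for 3 of the 6 TARPs, Cacng3, Cacng4 and Cacng5. All 19 differences were above 0, from 0.03 to 0.54, with a median of 0.32 against 0.01 over all tested probes. This direction was not common to all settings, since with the ratios scaled to 1 spread on every array the median was 0.02 and 11 of 19 were above 0, and with the red channel alone it was 0.01 and 10 of 19. Of the 19 probes, 11 passed the threshold of 0.05 in the higher direction and 0 in the lower direction (limma, two-sided, adjusted by Benjamini-Hochberg over all tested probes), beside 17% of all tested probes in either direction, 10.2% higher and 6.77% lower. The counts were 8 of 11 probes for the receptor subunits (median 0.38) and 3 of 8 for the TARPs (median 0.16). The groups did not overlap for 5 probes, beside 11.4% of all tested probes. The count fell to 7 without AP5 array 1, without vehicle array 1 or without vehicle array 5. In bulk cultures, fewer cells of a type and less RNA per cell cannot be told apart.

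**Figure D1:**
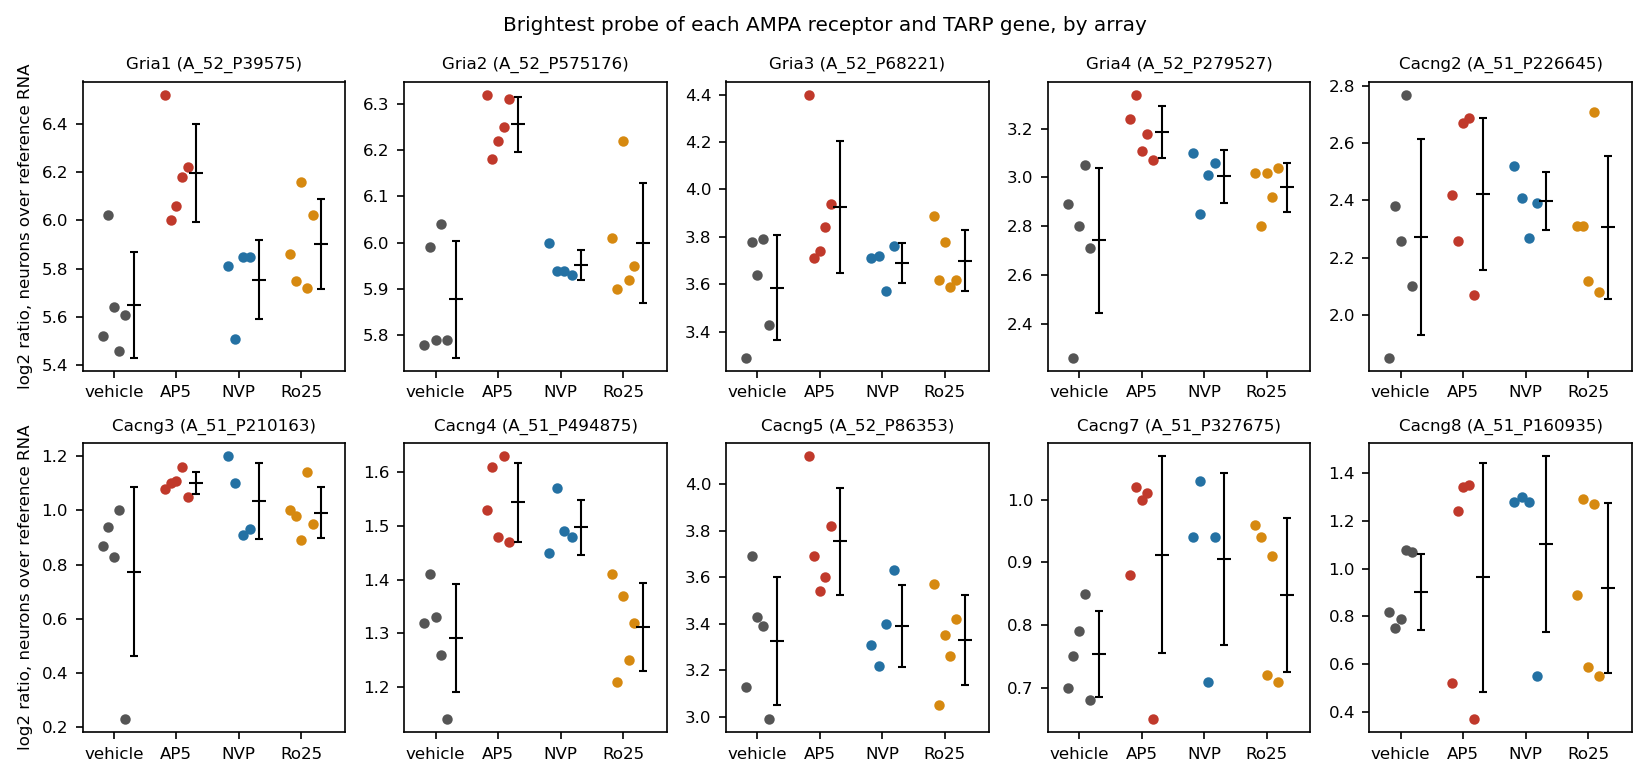
Log2 ratio of neuron over reference RNA (vertical axis, scaled for each panel) for the brightest probe of each gene, 1 point per array, with the mean and SD of each group (vehicle, AP5 and Ro25 n = 5, NVP n = 4). The AP5 points of Gria2 and Cacng4 all lie above the vehicle points, while those of Cacng2 lie among them and those of Cacng8 on both sides. With ratios scaled to 1 spread the Gria2 difference turns to -0.21.

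Gria1 encodes GluA1, a subunit whose phosphorylation and insertion at synapses accompany long-term potentiation. Its brightest probe read 6.52, 6.00, 6.06, 6.18 and 6.22 on AP5 arrays 1 to 5 and 5.52, 6.02, 5.64, 5.46 and 5.61 on vehicle arrays 1 to 5. On NVP arrays 1 to 4 it read 5.81, 5.51, 5.85 and 5.85, and on Ro25 arrays 1 to 5 it read 5.86, 5.75, 6.16, 5.72 and 6.02. AP5 array 1 was the highest of all, and vehicle array 2 reached into the AP5 range. The AP5 mean was 6.20 ± 0.20 (SD, n = 5) against 5.65 ± 0.22 (SD, n = 5) with vehicle, a log2 difference of 0.54 (SE 0.12, limma adjusted p = 0.00313). That is 1.46-fold, with a 95% interval from 1.23 to 1.72. The other Gria1 probe, A_51_P498031, read 4.67, 4.72, 4.82, 4.96 and 4.53 with AP5 and 3.98, 4.50, 4.42, 4.32 and 4.20 with vehicle, without overlap. Its difference was 0.46 (SE 0.09, limma adjusted p = 0.00134), and both Gria1 calls held without any single array. Neither probe was called with the red channel alone (-0.05 for A_52_P39575 and -0.15 for A_51_P498031) or with the ratios scaled to 1 spread.

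Gria2 encodes GluA2. Its brightest probe read 6.32, 6.18, 6.22, 6.25 and 6.31 on the AP5 arrays and 5.78, 5.99, 5.79, 6.04 and 5.79 on the vehicle arrays. It read 6.00, 5.94, 5.94 and 5.93 with NVP and 6.01, 5.90, 6.22, 5.92 and 5.95 with Ro25. All AP5 arrays stood above all vehicle and NVP arrays, and Ro25 array 3 reached the AP5 range. The difference from vehicle was 0.38 (SE 0.06, limma adjusted p = 0.000532), or 1.30-fold with a 95% interval from 1.18 to 1.43. With the ratios scaled to 1 spread it was -0.21 (adjusted p = 0.238). Probe A_52_P891243 read 2.49, 2.32, 2.19, 2.42 and 2.19 with AP5 and 1.99, 2.08, 2.02, 2.28 and 1.82 with vehicle, with overlap, and differed by 0.28 (SE 0.09, limma adjusted p = 0.0422). Its adjusted p ran from 0.0166 to 0.124 when single arrays were left out. The third probe, A_52_P360995, which is close to background, differed by 0.05 (adjusted p = 0.727), so the 3 Gria2 probes did not give the same value.

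Gria3 encodes GluA3, which assembles mainly with GluA2. The brightest Gria3 probe, A_52_P68221, read 4.40, 3.71, 3.74, 3.84 and 3.94 with AP5 and 3.29, 3.78, 3.64, 3.79 and 3.43 with vehicle. AP5 array 1 stood well above the rest, while AP5 arrays 2 and 3 lay inside the vehicle range. The difference of 0.34 (SE 0.12) missed the threshold with a limma adjusted p of 0.0547. Probe A_52_P179309 read 2.73, 2.55, 2.47, 2.73 and 2.34 with AP5 and 2.05, 2.13, 2.07, 2.40 and 2.07 with vehicle. Only vehicle array 4 lay inside the AP5 range, and the difference was 0.42 (SE 0.09, limma adjusted p = 0.00286). Probe A_52_P272364 differed by 0.04 (adjusted p = 0.846), with a 95% interval from -0.21 to 0.29.

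Gria4 encodes GluA4, a fast-gating subunit prominent in parvalbumin interneurons of the adult hippocampus. The brightest Gria4 probe, A_52_P279527, read 3.24, 3.34, 3.11, 3.18 and 3.07 with AP5 and 2.89, 2.26, 2.80, 3.05 and 2.71 with vehicle. The groups did not overlap, and vehicle array 2 was the lowest. The difference was 0.45 (SE 0.11, limma adjusted p = 0.00645). Probe A_51_P501735 differed by 0.42 (SE 0.08, adjusted p = 0.00118), from 2.41 ± 0.13 with vehicle to 2.83 ± 0.16 with AP5 (SD, n = 5 each, limma). AP5 array 5, at 2.57, fell below vehicle array 4, at 2.62. Probe A_52_P349182 differed by 0.32 (SE 0.11, adjusted p = 0.0484), a call that was lost when any of 12 arrays was left out by itself.

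Among the TARPs, Cacng4 (γ-4), found early in development and in glia, had the smallest standard error of the 3 that were called. Its probe, A_51_P494875, read 1.53, 1.61, 1.48, 1.63 and 1.47 with AP5 and 1.32, 1.41, 1.33, 1.26 and 1.14 with vehicle. It read 1.45, 1.57, 1.49 and 1.48 with NVP and 1.41, 1.21, 1.37, 1.25 and 1.32 with Ro25. The AP5 and NVP arrays lay above all vehicle arrays and the Ro25 arrays lay among them. The AP5 difference was 0.25 (SE 0.06, limma adjusted p = 0.00431), and it kept its call without any single array. It was not called with the red channel alone (-0.04) or with the ratios scaled to 1 spread. The span listed for this probe, chr11:107558061-107610360 on the minus strand, was far longer than those of the other probes.

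Cacng5 (γ-5), an atypical TARP, read 4.12, 3.69, 3.54, 3.60 and 3.82 with AP5 and 3.13, 3.69, 3.43, 3.39 and 2.99 with vehicle. AP5 array 1 was the highest, vehicle array 2 overlapped the AP5 range, and the difference was 0.43 (SE 0.13, limma adjusted p = 0.0287). The adjusted p rose to between 0.0549 and 0.0903 without AP5 array 1, AP5 array 5, vehicle array 1 or vehicle array 5. Cacng3 (γ-3), with reference signal above background on 5 of 19 arrays, read 1.08, 1.10, 1.11, 1.16 and 1.05 with AP5 and 0.87, 0.94, 0.83, 1.00 and 0.23 with vehicle. Vehicle array 5 stood far below the other 4, on the array that also had the most spots marked by the scanner software (1642 against 117 to 266). The difference of 0.32 (SE 0.11, limma adjusted p = 0.0436) became 0.19 with an adjusted p of 0.0667 without that array, and the call was lost for any of 12 arrays left out by itself.

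Cacng2 encodes stargazin (γ-2), the founding TARP, and none of its 3 tested probes passed the threshold with AP5. The differences were 0.15 for A_51_P226645 (95% interval from -0.17 to 0.47), 0.17 for A_52_P569028 (from -0.05 to 0.39) and 0.03 for A_51_P408910 (from -0.21 to 0.26). Cacng7 (γ-7) differed by 0.16 (adjusted p = 0.173). Cacng8 encodes γ-8, the main TARP of the hippocampus. Its probe read 0.52, 1.24, 1.34, 1.35 and 0.37 with AP5 and 0.82, 0.75, 0.79, 1.08 and 1.07 with vehicle. AP5 arrays 1 and 5 stood below every vehicle array and the other 3 above, and the difference of 0.06 had a 95% interval from -0.37 to 0.49.

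**Figure D2:**
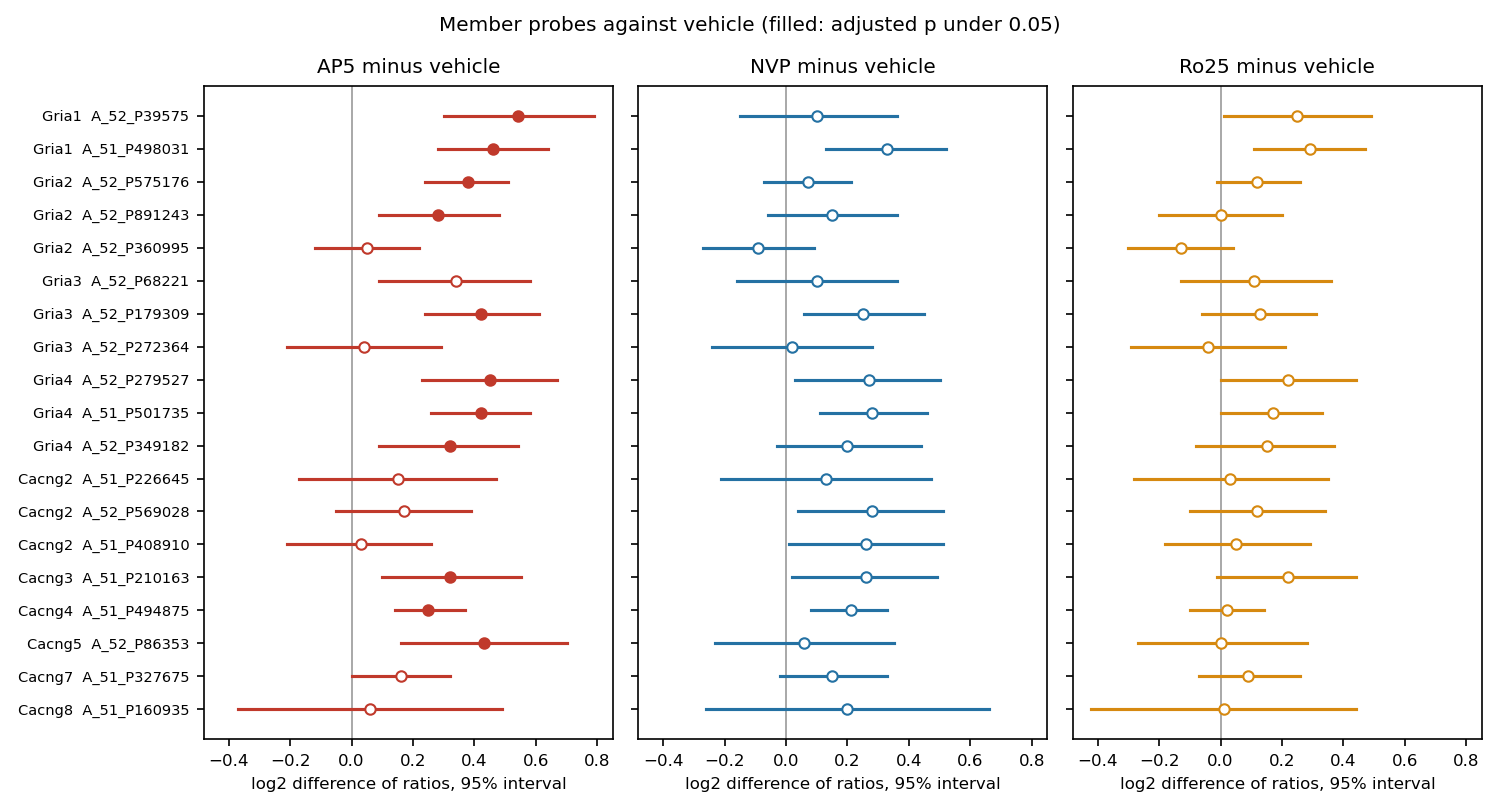
Log2 difference from vehicle of each tested probe (horizontal axis) with its 95% interval for AP5, NVP and Ro25. Filled points passed an adjusted p of 0.05. Of the AP5 points 11 are filled, and with NVP and Ro25 none is, and the AP5 differences turn to a median of 0.02 when ratios are scaled to 1 spread.

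High-ratio probes in general were higher with AP5. Over all tested probes with a mean log2 ratio between 2 and 3, the median difference between AP5 and vehicle was 0.15 and 22.1% were called higher. For ratios of 4 to 5 the median was 0.29 with 44.8% called higher, and above 5 it was 0.32 with 47.4%. For ratios below -2 it was -0.15, with 1.19% called higher and 22.7% lower. The 19 probes had mean ratios from 0.28 to 6.02. The values of 0.46 for Gria1 probe A_51_P498031 at a ratio of 4.55, and of 0.54 for A_52_P39575 at 5.88, stand beside medians of 0.29 and 0.32 for all probes of like ratio, and the 0.38 of Gria2 probe A_52_P575176 at 6.02 stands beside 0.32. Gria4 probe A_51_P501735, with 0.42 at a ratio of 2.63, stands beside 0.15. Gria4 probe A_52_P279527 (0.45 at 2.97) and Gria3 probe A_52_P179309 (0.42 at 2.34) also stand beside 0.15. Cacng5 (0.43 at 3.45) stands beside 0.23, Cacng4 (0.25 at 1.41) beside 0.11 and Cacng3 (0.32 at 0.97) beside 0.04. Some of the other probes lay at the median of their bin or close to it. Cacng2 probes A_51_P226645 (0.15 at a ratio of 2.35) and A_52_P569028 (0.17 at 2.27) stand beside 0.15, and Gria3 probe A_52_P272364 (0.04 at 0.64) and Cacng2 probe A_51_P408910 (0.03 at 0.86) beside 0.04. The part of this trend in the calls was not tested, and the bins were drawn after the differences had been seen.

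**Figure D3:**
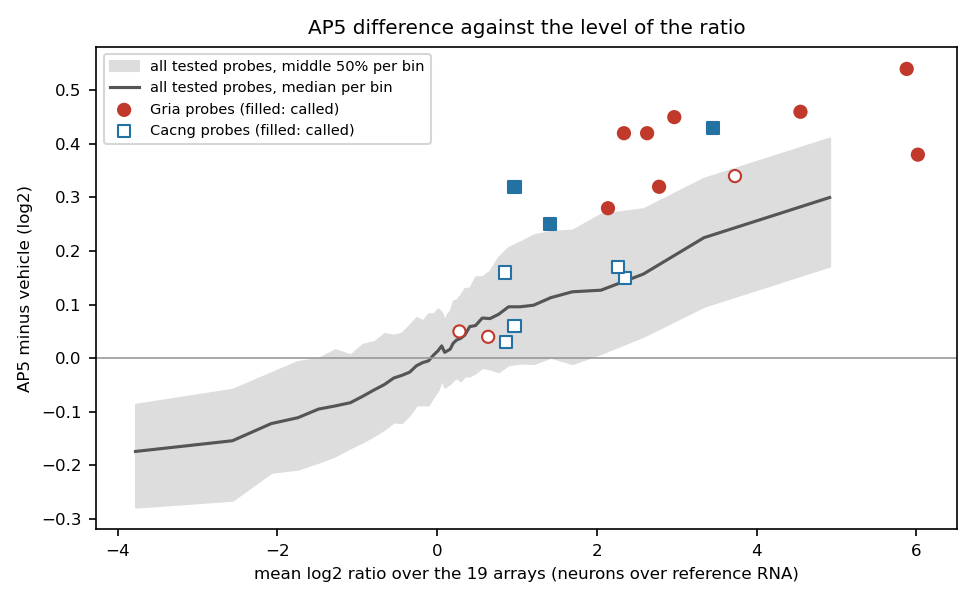
AP5 minus vehicle (log2, vertical axis) against the mean log2 ratio over the 19 arrays (horizontal axis). The line and band are the median and middle 50% of all tested probes in 40 bins of equal number, from -0.174 in the lowest bin to 0.3 in the highest, and the points are the 19 probes of these genes, with 11 filled.

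The channels taken singly did not show the same difference. The red channel alone, which holds the neuron RNA, called 0 of the 19 probes between AP5 and vehicle (limma, quantile normalised), while it called 3061 of all tested probes. For Gria1 the red difference was -0.05 (95% interval from -0.20 to 0.10) and -0.15 (from -0.52 to 0.22). The green channel, which holds the common reference, was lower with AP5 by -0.53 (SE 0.09, limma adjusted p = 0.00346) and -0.40 (SE 0.11, adjusted p = 0.0418) for these same 2 probes. For Gria2 probe A_52_P575176 the red difference was 0.02 and the green one -0.19 (adjusted p = 0.178). For Gria4 probe A_52_P279527 they were -0.05 and -0.23 (adjusted p = 0.17). Cacng3 and Cacng5 had red differences of 0.36 (SE 0.14, limma adjusted p = 0.104) and 0.32 (SE 0.12, adjusted p = 0.0976), the largest among the 19. Gria3 probe A_52_P179309 had 0.18 (adjusted p = 0.163) and Gria4 probe A_51_P501735 had 0.20 (adjusted p = 0.236). The reference channel was called for 3 of the 19 probes, the third being Cacng8 (-0.14, adjusted p = 0.0229), beside 6.13% of all tested probes. A normalised ratio need not equal the difference of the 2 channels normalised singly, and what made the reference differ was not tested.

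**Figure D4:**
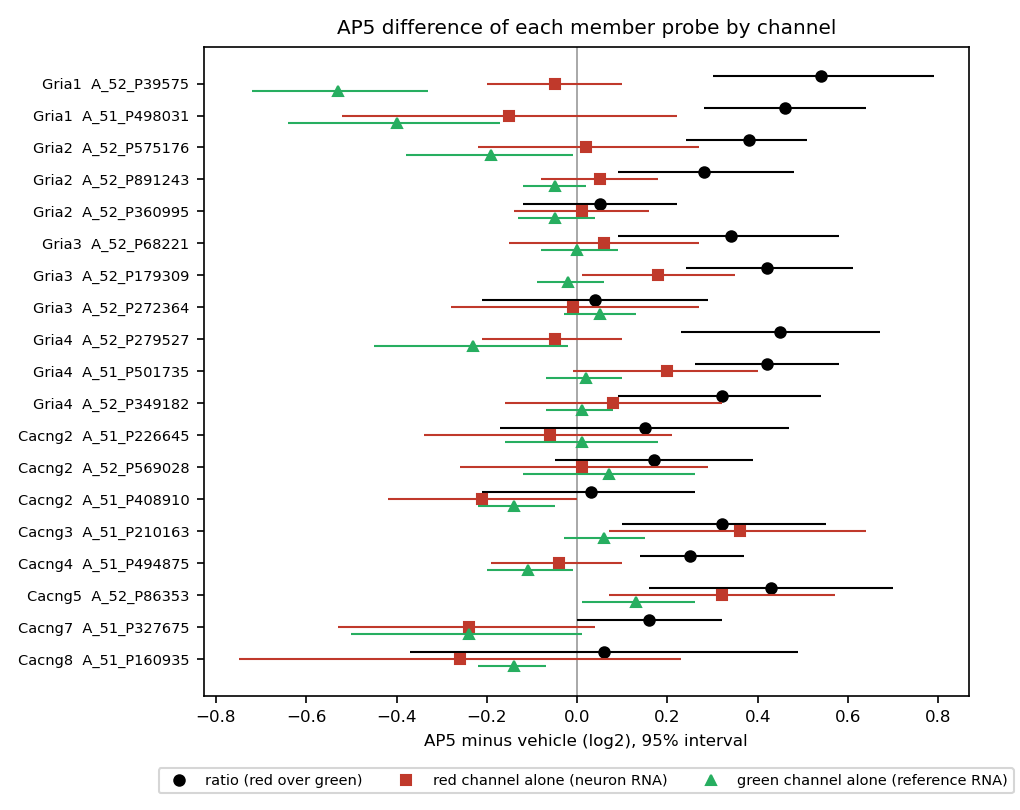
AP5 minus vehicle (log2, horizontal axis) with 95% intervals for each probe as a ratio, in the red channel alone (neuron RNA) and in the green channel alone (reference RNA). Both Gria1 probes have a red value near 0 and a green value below 0, at -0.53 and -0.40.

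Other settings changed the same count, and in 3 of them no probe of these genes was called. With the ratios scaled to 1 spread, 0 of 19 were called. With normexp fitted to all spots, the marked ones included, 0 were called and the median was 0.07. With slide as a fixed block, 0 were called, the median was -0.01, and 11 probes of all tested were called. That estimate rests on AP5 array 5 and vehicle array 2, tied through NVP and Ro25 arrays, and its median standard error was 0.23 against 0.08. AP5 array 5 was among the 4 arrays lowest in astrocyte markers (mean log2 ratio 3.15), and vehicle array 2 was not (3.89). In this setting the astrocyte markers had a median AP5 difference of -1.95, with 0 called. Their part in the receptor and TARP values was not tested. With the deposited Agilent ratio, 8 of 19 were called and the median was 0.46.

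**Figure D5:**
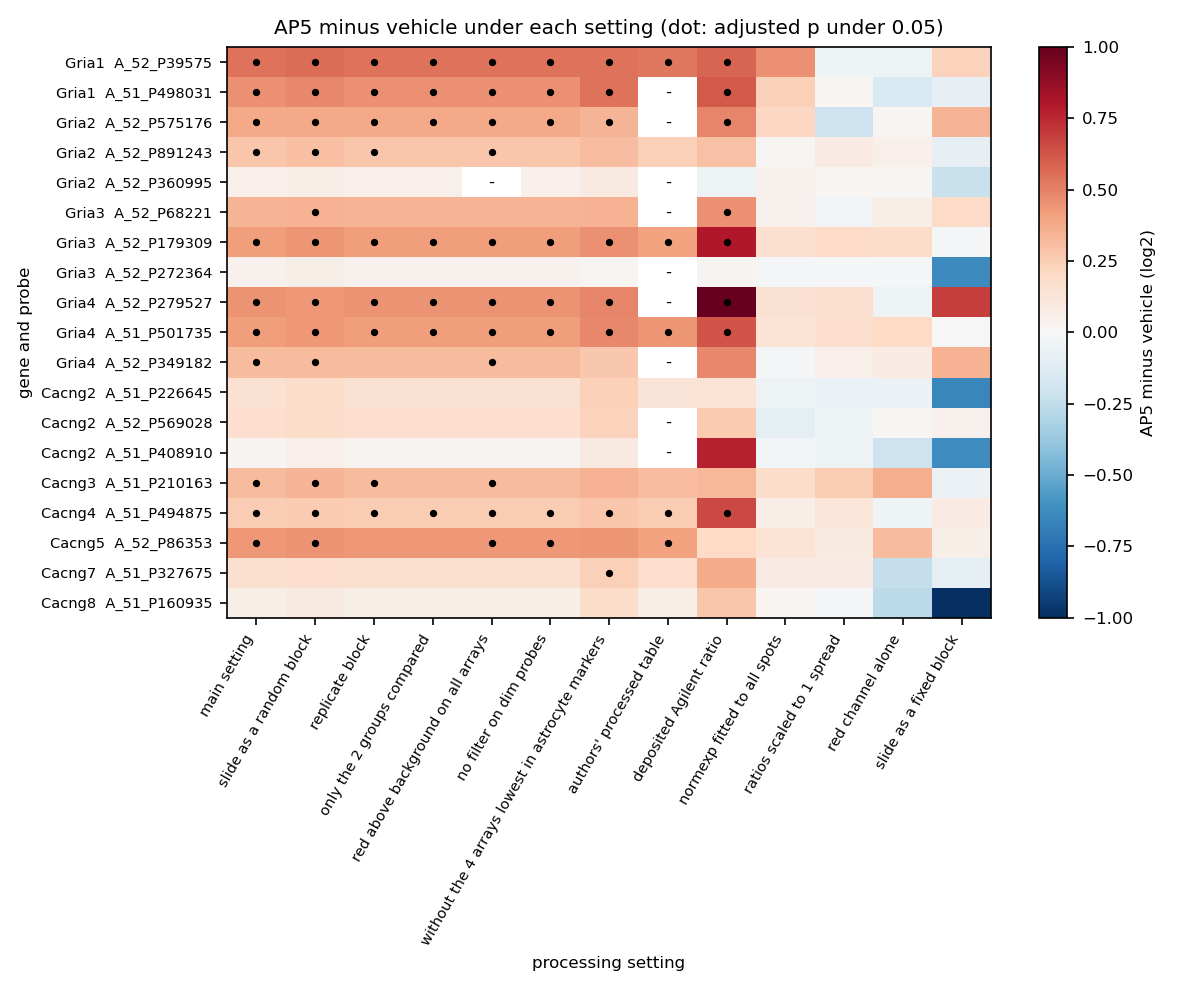
AP5 minus vehicle (log2, colour) for each probe (rows) under each processing setting (columns), where a dot marks an adjusted p under 0.05 and a dash a probe not in that table. The columns for normexp on all spots, 1 spread, the red channel alone and slide as a fixed block hold no dot.

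With NVP, 0 of the 19 probes passed the threshold, beside 0% of all tested probes. The median difference from vehicle was 0.20 (limma), against 0.01 over all tested probes. Among all tested probes with ratios of 2 to 3 the median was 0.09, and above 5 it was 0.19. The median of the 19 was 0.08 with the ratios scaled to 1 spread and 0.02 with the red channel alone. At an unadjusted p under 0.05 there were 8 of the 19, beside 2341 of all tested probes (8.17%). Gria1 probe A_51_P498031 read 4.68, 4.60, 4.53 and 4.62 on the NVP arrays, all above the vehicle arrays, and differed by 0.33 (SE 0.09, limma adjusted p = 0.379). Cacng4 differed by 0.21 (SE 0.06, adjusted p = 0.379), also without overlap. These were the only 2 probes without overlap, beside 2.62% of all tested probes. For these 2 in turn the red channel alone gave 0.05 and 0.01, and the green reference channel -0.2 and -0.08. Gria4 probe A_51_P501735 differed by 0.28 (95% interval from 0.11 to 0.46). Cacng8 read 1.28, 1.30, 1.28 and 0.55, with NVP array 4 far below the other 3. No slide held both NVP and vehicle arrays, and fitting slide as a fixed term gave a median of -0.06.

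With Ro25, again 0 of the 19 probes passed, beside 0% of all tested probes, and the median was 0.11 (limma). That median became 0.06 without Ro25 array 1 and 0.07 without vehicle array 1. At an unadjusted p under 0.05 there were 3 of the 19, beside 1634 of all tested probes (5.7%). The 3 were both Gria1 probes, with differences of 0.25 (95% interval from 0.01 to 0.49) and 0.29 (from 0.11 to 0.47), and Gria4 probe A_51_P501735, with 0.17. For these 3 in turn the red channel alone gave 0.02, -0.11 and 0.09, and the green reference channel -0.16, -0.32 and -0.02. The groups did not overlap for 0 of the 19, beside 0.775% of all tested probes. Cacng4 differed by 0.02, with a 95% interval from -0.10 to 0.14, and Cacng5 by 0.00 (from -0.27 to 0.28). The Ro25 median was 0.02 with the ratios scaled to 1 spread and -0.04 with the red channel alone. With normexp fitted to all spots it turned to -0.31, and 0 probes were called in each of these settings too. On slide 4, the only slide with both groups, Ro25 arrays 2, 3 and 5 stood against vehicle array 2 at -0.05 and 0.04 for the Gria1 probes and at 0.19 for the Gria4 probe, values with no test.

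The antagonists were also set against each other, at unmatched doses, as 3 pairs with p-values adjusted within each pair. AP5 arrays were higher than NVP arrays for 2 of the 19 probes, beside 2.52% of all tested probes called higher and 3.73% either way, both without overlap (7.62% of all tested probes). These were Gria2 probe A_52_P575176, by 0.31 (SE 0.07, limma adjusted p = 0.0126), and Gria1 probe A_52_P39575, by 0.44 (SE 0.12, adjusted p = 0.0493). On slide 2, the only slide with both, AP5 array 5 stood 0.34 above the mean of NVP arrays 1 and 3 for the Gria2 probe and 0.39 for the Gria1 probe, values with no test. These arrays also differed in astrocyte markers, with a mean log2 ratio of 3.15 on AP5 array 5 and of 4.3 and 4.55 on NVP arrays 1 and 3. Over the 19 probes the values on that slide ran from -0.90 for Cacng8 to 0.47 for Cacng5. The Gria1 call was lost, leaving 1, without any single array other than AP5 array 2, Ro25 array 3 or vehicle array 2 (adjusted p of 0.195 without NVP array 2), while the Gria2 call was not lost without any. AP5 arrays were higher than Ro25 arrays for 2 of the 19, beside 3.99% of all tested probes called higher and 5.66% either way. These were Gria2 probe A_52_P575176, by 0.26 (SE 0.06, limma adjusted p = 0.0217), and Cacng4, by 0.23 (SE 0.06, adjusted p = 0.0166). The groups did not overlap for 2 probes, beside 6.49% of all tested probes, which were Cacng4 and Gria4 probe A_52_P279527. Without Ro25 array 2 neither Gria2 probe A_52_P575176 nor Cacng4 was called, with limma adjusted p of 0.0656 and 0.0532. Without Ro25 array 4 or 5 or AP5 array 1 the count of called probes was 1. It was 4 without AP5 array 5, Ro25 array 1 or vehicle array 4. NVP and Ro25 arrays differed for 0 of the 19, beside 0% (limma), with 1 of the 19 and 484 of all tested probes at an unadjusted p under 0.05, and the 1 was Cacng4 at 0.19 (95% interval from 0.06 to 0.31), also the 1 probe without overlap, beside 0.726% of all tested probes. On slide 3, which held both, Cacng4 stood at 0.20. All 6 comparisons draw on 4 groups of arrays, so those that share a group are not independent.

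Each probe was centred on its mean over the 19 arrays. The brightest receptor probes were compared with tested probes of other genes that had an official symbol and a value on every array. Most like Gria1 were the probes of Chgb and Pcdh17, with a root mean square difference of 0.082 and 0.098 against a median of 0.293 over the probes compared. For Gria2 they were Fbxl20 and Mtx3 (0.058 and 0.063, median 0.205). For Gria3 they were Gad2 and Tlcd4 (both 0.078, median 0.242), and for Gria4 Nxph1 and Chrdl1 (0.131 and 0.14, median 0.257). These are descriptions over arrays that share the same treatments and slides.

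Other genes that act on AMPA receptors were counted by 1 probe each, the brightest, from lists drawn up with earlier results of these data known. Of 9 measured auxiliary proteins that are not TARPs, 5 were higher with AP5 than with vehicle and 0 lower, with a median difference of 0.31 against 0.01 over all tested probes. Over all tested probes 10.2% were called higher and 6.77% lower, and these are the shares beside which each list count below stands. The lists were not matched for ratio, and the share called higher rose from 19.9% at ratios of 1 to 2 to 47.4% above 5. The 5 were Olfm1 (0.60, SE 0.07, limma adjusted p = 5.7e-06), Gsg1l (0.77, SE 0.16, adjusted p = 0.00353), Olfm3 (0.38), Cnih2 (0.35) and Olfm2 (0.27), which was called like the others but lay outside the naming rule and was named after its value was seen. Cnih2 encodes a cornichon that binds the receptor and slows its closing, and Gsg1l encodes a subunit that dampens receptor currents. Of 15 scaffold and trafficking genes 2 were higher and 1 lower. Arc, the activity-induced gene whose product takes part in removing AMPA receptors from the surface, was lower by -1.16 (SE 0.14, limma adjusted p = 1.2e-05), while Sdcbp (0.36) and Dlg2 (0.30) were higher. Of 8 kinases and phosphatases Camk2b was higher (0.29), and of 4 extracellular organisers Lrrtm1 was higher (0.78, SE 0.14, adjusted p = 0.00109). Of 3 RNA editing genes Adar was called at 0.29, but its other probe gave -0.34. None of the 6 receptor biogenesis genes was called, the smallest p being that of Frrs1l (0.26, adjusted p = 0.0945). Of 7 kainate and delta receptor genes Grik4 was higher (0.51), and Cacng6, a gamma subunit that is not a TARP, differed by 0.03. Arc and Sdcbp kept their direction and call with the ratios scaled to 1 spread (-1.36 and 0.34), with the red channel alone (-1.46 and 0.24) and with normexp on all spots (-1.21 and 0.31). Cnih2 turned to -0.01, Dlg2 to -0.12, Camk2b to -0.16 and Grik4 to -0.08 with 1 spread. Of the 15 scaffold and trafficking genes, 1 was called higher and 3 lower with 1 spread, and 1 higher and 2 lower with the red channel alone. Genes not called by ratio were then called lower, namely Akap5 (-0.41) and Syne1 (-0.39) with 1 spread and Syne1 (-0.57) with red alone. The same held for the extracellular organiser Nptx2, at -0.60 with 1 spread and -1.18 with red alone, for the RNA editing gene Adarb1 (-0.30) with 1 spread and for the phosphatase Ptpn5 (-0.53) with red alone, all 5 named after their values were seen. Of the 9 auxiliary proteins, 0 were called with 1 spread, and 1 higher and 1 lower with the red channel alone, the higher being Olfm1 (0.38, limma adjusted p = 0.000711). With slide as a fixed block 0 genes of these lists were called. These settings were applied to the lists after the data had been seen. With NVP and with Ro25 against vehicle, 0 genes of these lists were called.

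Markers of cell types differed in the same comparison, with directions that changed with the scaling. With AP5, 4 of 8 excitatory markers were higher than with vehicle (Calb1 0.40, Emx1 0.49, Neurod2 0.25 and Prox1 0.42), 3 of 6 pan-neuronal ones (Syt1 0.45, Rbfox3 0.40 and Tubb3 0.26) and 3 of 8 GABAergic ones (Sst 0.34, Slc32a1 0.37 and Gad2 0.39), with 0 lower in each list. These counts stand beside 10.2% called higher and 6.77% lower over all tested probes, and beside 33% called higher among probes with a ratio of 3 to 4 and 47.4% above 5. Of 10 astrocyte markers Slc1a2 was higher (0.38), and of 9 oligodendrocyte lineage markers Sox10 (0.56) and Olig2 (0.27). Of 6 measured microglia markers Tmem119 (-0.29) and Trem2 (-0.26) were lower. The mean log2 ratio of the pan-neuronal markers ran from 5.36 to 5.51 with AP5 and from 4.93 to 5.28 with vehicle, without overlap, and that of the astrocyte markers from 3.15 to 4.65 and from 3.06 to 4.27. With the ratios scaled to 1 spread the medians turned to -0.06 for the excitatory, -0.18 for the pan-neuronal and -0.04 for the GABAergic markers. There 2 pan-neuronal, 1 excitatory and 1 GABAergic marker were called lower, while 1 excitatory and 1 microglia marker were called higher. With the red channel alone the medians turned to -0.02, -0.08 and -0.05, with 1 excitatory marker called higher and 2 lower. With 1 spread the median of the microglia markers turned to 0.11. The part of these in the receptor and TARP values was not tested. Without the 4 arrays lowest in astrocyte markers, 8 of the 19 receptor and TARP probes were called with AP5 and the median was 0.31.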

How the data were processed

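Feature Extraction 9.5.3.1 gave the spot intensity of each channel, per the file headers, whereas Agilent Feature Extraction 11.0 stands in the submitters' processing notes. The deposited log10 ratio was already corrected for background and dye, per the file headers. The authors' series-wide values are log2 of red over green for 20674 probes, 10 of them of the genes described. They correlated at 0.9986 or more with the ratios computed here, their column medians ran from 0.0345 to 0.0478, and their centring is not given in the sources used here. Dyes were not swapped.

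From the mean intensities, spots marked as non-uniform or outliers were removed, the background was corrected by normexp (offset 50), and ratios were normalised by loess within arrays, with no scaling between arrays. Spots of a probe were averaged, and probes with red well above background on at least 4 of 19 arrays were kept. Per array, the red signal had a median of 135.5 to 177.8, with 24943 to 28548 probes above background. The number of arrays limits the precision, with a median standard error of 0.08 for a log2 difference. No pair of arrays shared more than 0.017% of its red signals.

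Differences between groups were fitted in limma 3.58.1 under R 4.3.3 (with statmod 1.5.0 and version 1.17.8 of data.table), in 1 model over 19 arrays, two-sided, adjusted by Benjamini-Hochberg over all kept probes, with a threshold of 0.05. The code was tested on simulated data. Alternatives changed the normalisation, the channel, the source of values, the filter, the slide and replicate terms and the arrays used. The genes and lists were chosen with earlier results of these data known. All probes of the 10 genes are described. From other lists at most 4 called genes are named, in order of p, or else the gene with the smallest p. For each receptor gene the 2 most alike probes of other genes are named.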

Additional observations from a re-analysis of the deposited data

Results flagged for a closer look

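Of 76 groups of 4 or 5 arrays, 1 per tested probe and treatment, 6 held an array whose gap to its nearest neighbour took up more of the group's range than Dixon's 95% value allows. Chance alone marks about 1 group in 20. NVP array 2 read 5.51 for Gria1 probe A_52_P39575, below 5.81 to 5.85 on the others. NVP array 1 read 6.00 for Gria2 probe A_52_P575176, above 5.93 to 5.94. AP5 array 5 read 0.10 for Gria2 probe A_52_P360995, below 0.38 to 0.48. Vehicle array 4 read 2.40 for Gria3 probe A_52_P179309, above 2.05 to 2.13. Vehicle array 5 read 0.23 for Cacng3, below 0.83 to 1.00. NVP array 4 read 0.55 for Cacng8, below 1.28 to 1.30. AP5 array 5 and NVP array 4 are among the 4 arrays lowest in astrocyte markers.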

How the results depend on the processing

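For AP5 against vehicle, 11 of 19 probes were called. The count was 0 with normexp on all spots, with ratios scaled to 1 spread, with the red channel alone and with slide as a fixed block, 7 with only the 2 groups compared, 5 of 10 in the authors' table and 6 of 10 with the brightest probe per gene. Over all tested probes, 4870 were called, against 959 with normexp on all spots, 3061 with red alone, 11 with slide fixed and 2774 of 15517 in the authors' table. For AP5 against NVP, 2 probes were called, 1 with the Agilent ratio, no filter, only the 2 groups, the replicate block or without the 4 astrocyte-poor arrays, and 0 in the authors' table, with normexp on all spots, 1 spread, red alone or slide fixed. Over all tested probes that comparison gave 1068, against 687 of 15517 in the authors' table, 309 with normexp on all spots, 653 with only the 2 groups and 186 with slide fixed. For AP5 against Ro25, 2 were called, 1 with only the 2 groups, 6 with slide as a random block (consensus correlation -0.08) and 0 with normexp on all spots, 1 spread, red alone or slide fixed. Its 1621 calls became 1046 of 15517 in the authors' table, 521 with normexp on all spots and 25 with slide fixed. For Ro25 against vehicle 0 of all tested probes were called, against 1 with slide fixed and 2 without the 4 astrocyte-poor arrays, of all tested probes.

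Without 1 array at a time, calls ran from 7 to 11 (3576 to 4916 of all) for AP5 against vehicle, 1 to 2 (702 to 1079) against NVP and 0 to 4 (1206 to 1619) against Ro25. They stayed at 0, and 0 to 2 of all, for NVP and Ro25 against vehicle, and at 0 between NVP and Ro25.

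Of the 19 probes, all above 0 with AP5 against vehicle, 10 were above 0 with red alone, 9 with slide fixed, 11 with 1 spread and 14 with normexp on all spots. Among the 11 called probes, those that changed sign with red alone were Gria1 (-0.05 and -0.15), Gria4 A_52_P279527 (-0.05) and Cacng4 (-0.04). With slide fixed they were Gria1 A_51_P498031 (-0.08), Gria2 A_52_P891243 (-0.08), Gria3 A_52_P179309 (-0.01) and Cacng3 (-0.06). With 1 spread they were Gria1 A_52_P39575 (-0.04) and Gria2 A_52_P575176 (-0.21, and -0.10 against Ro25), and with normexp on all spots Gria4 A_52_P349182 (-0.01). Among the probes called in the other pairs, with red alone Gria1 A_52_P39575 gave -0.07 against NVP and Cacng4 0.00 against Ro25. For normexp on all spots, 1 spread and red alone the cause was not tested, while the fixed slide block has few arrays behind it.

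Same-numbered AP5 and vehicle arrays deviated with correlations from -0.44 to 0.10. For NVP and vehicle arrays they ran from -0.6 to 0.3, and for Ro25 and vehicle arrays from -0.4 to 0.74. These values do not show whether same-numbered arrays are pairs. The replicate block called 9 of 19 probes and 4260 of all for AP5 against vehicle, and 0 for NVP and Ro25 against vehicle. No slide held AP5 or NVP arrays with vehicle arrays, or AP5 with Ro25 arrays, so no within-slide value exists for these. Reference signal was above background on 0 of 19 arrays for 3 tested probes, on 3 for Cacng2 A_51_P408910, on 5 for Cacng3, on 11 for Gria3 A_52_P179309, on 16 or 17 for 3 others and on all 19 for the other 10. Ratios without reference signal above background are limited by it.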
